A study of Homo sapiens with 6 samples.

Results

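The mRNAs of 9 genes that act in tRNA splicing were followed through a pulldown of RNA with the FERRY complex. They encode 3 subunits of the tRNA splicing endonuclease (TSEN34, TSEN15 and TSEN54), the RNA kinase CLP1, and the tRNA ligase complex with its activator (RTCB, DDX1, RTRAF, FAM98B and ZBTB8OS). They were chosen by function around TSEN34, which was selected on its high fold change in this same comparison. The other genes were also chosen with results of this comparison known. All 9 were found among the 60676 genes of the deposited table. Their differences between the baits are therefore given as a description, and the adjusted p-values printed for them say only where each gene stands in a test over all genes.

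FERRY is a complex of TBCK, PPP1R21, C12orf4, CRYZL1 and GATD1 that binds the early endosomal GTPase RAB5. GST-Ferry, the complex carrying glutathione S-transferase (GST) as an affinity tag, was held on glutathione resin and given fresh lysate of HEK 293, an established cell line of human embryonic kidney origin kept in suspension culture, and GST alone served as the control bait. RNA was recovered from 3 pulldowns with GST-Ferry and 3 with GST, and no library of the input lysate was analysed here. The table names its columns as sample or control with a number, and these were read as GST-Ferry and GST with the matching replicate number, which is an assumption.

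Some tRNA genes carry a short intron, which is removed by proteins and not by the spliceosome. The endonuclease cuts the precursor at both ends of the intron. TSEN34 is the catalytic subunit for the downstream site, while TSEN15 and TSEN54 are structural subunits. RTCB then joins the exon ends directly, aided by the helicase DDX1, by RTRAF and FAM98B, and by archease, the product of ZBTB8OS, which lets RTCB turn over repeatedly. CLP1 binds the endonuclease and is also part of the machinery that cleaves mRNA 3′ ends. The values below are levels of the mRNAs encoding these proteins. Intron-containing tRNA precursors and the proteins themselves were not analysed here.

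Library totals were 6532665, 2671831 and 2454538 counts for GST-Ferry 1 to 3, against 9388865, 10466520 and 7390346 counts for GST 1 to 3. Of all genes, 15546 passed a filter on low counts, and all 9 tRNA splicing genes were among them. Reads of the FERRY subunit genes together took 0.249%, 2.72% and 5.35% of counts in GST-Ferry 1, 2 and 3, against 0.0359% to 0.0504% in the GST libraries. GST-Ferry 1 thus stood apart from GST-Ferry 2 and 3. Whether these reads came from the lysate or with the bait was not tested. All 5 markers listed for the line were present. In counts per 1000000 (CPM), KRT8 had 153 to 249 with GST-Ferry, against 63.2 to 114 with GST, KRT18 had 80.9 to 105 against 30.9 to 46.0, and VIM had 953 to 1349 against 590 to 800.1. PAX2 and LIN28B overlapped between the baits, at 7.95 to 14.4 and 104 to 232 CPM over all libraries. Of the markers of other cell types, HBB had 0 counts in every library, where 3 counts would correspond to 0.273 to 1.30 CPM. PTPRC and ALB stayed at or below 0.398 CPM. COL1A1, listed as a fibroblast marker, had 50.9 to 57.4 CPM with GST-Ferry, against 18.3 to 47.2 CPM with GST. The part of these markers in the results was not tested.

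TSEN34 and RTCB, the mRNAs of a catalytic subunit of the endonuclease and of the joining enzyme, were the 2 genes of the group that passed the test as higher with GST-Ferry, at 2.53-fold and 2.22-fold, and 0 passed as lower. Over all genes tested 0.592% passed as higher, 0.0322% as lower and 0.624% in either direction. At an unadjusted p under 0.05, 5 of the 9 genes were higher and 0 lower, beside 11.3% and 8.05% of all genes tested. With DESeq2, 3 passed as higher and 0 as lower, beside 4.39% and 1.48% of the 11929 genes to which it gave an adjusted p. Of the 9 genes 6 had a log2 fold change above 0, as did 47.8% of all genes. CLP1, TSEN54 and RTRAF had fold changes above 0 without passing, and TSEN15, DDX1, FAM98B and ZBTB8OS lay between -0.44 and 0.11 on the log2 scale. The median log2 fold change of the 9 genes was 0.46, beside -0.03 over all genes tested. These counts and the median include TSEN34, which was selected on its fold change.

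TSEN34 had 68.2, 98.3 and 85.7 CPM in GST-Ferry 1, 2 and 3, against 37.6, 31.4 and 30.1 CPM in GST 1, 2 and 3. The lowest GST-Ferry library was well above the highest GST library. GST-Ferry 1, with the smallest share of FERRY subunit reads of the GST-Ferry libraries, was the lowest of its group. GST-Ferry 3, with the largest share of these reads, lay below GST-Ferry 2. Whether the amount of FERRY subunit reads had a part in the result was not tested. The means were 84.0 ± 15.1 CPM with GST-Ferry and 33.03 ± 4.03 CPM with GST (SD, n = 3 each). The log2 fold change was 1.34 ± 0.21 (SE), or 2.53-fold, and the p adjusted by Benjamini-Hochberg over all genes was 0.0397 (edgeR, quasi-likelihood test). It was the 29th highest fold change of all 15546 genes. With the FERRY subunit genes removed from the fit, the log2 fold change of TSEN34 was 1.34 (adjusted p = 0.0443, edgeR quasi-likelihood). TSEN34 (ENSG00000170892) lies on the plus strand of chromosome 19 (chr19:54189938-54194536, GRCh38). Its representative transcript has 5 exons and 2294 bases, of which 930 are coding and 1177 are 3′ untranslated, and no gene annotated by GENCODE 29 overlaps its span.

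TSEN54 and TSEN15 did not pass the test. TSEN54, a structural subunit, had 45.4, 76.4 and 87.9 CPM in GST-Ferry 1 to 3, against 43.1, 50.6 and 32.9 CPM in GST 1 to 3. GST-Ferry 1 lay within the GST range, and the log2 fold change was 0.71 ± 0.26 (adjusted p = 0.174, edgeR quasi-likelihood). TSEN15, the smallest coding region of the 9 genes with 513 bases, had 40.7, 46.5 and 39.1 CPM with GST-Ferry, against 33.6, 39.5 and 59.8 CPM with GST. The groups overlapped, with GST 3 the highest of the 6 libraries, and the log2 fold change was -0.07 ± 0.24 (adjusted p = 0.896, edgeR quasi-likelihood).

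**Figure D1:**
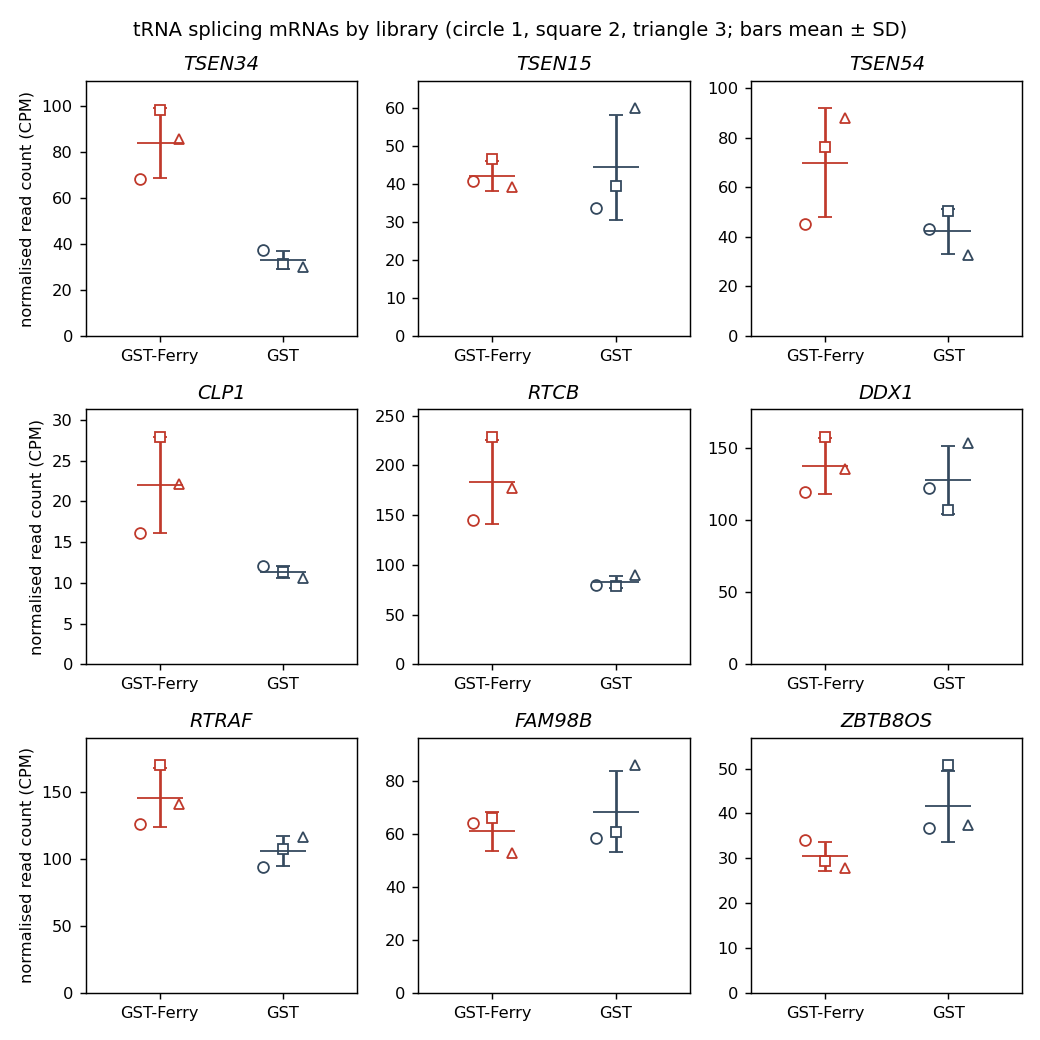
Normalised read counts (CPM, linear axes from 0) of the 9 tRNA splicing mRNAs in each library, GST-Ferry left and GST right; horizontal bars and whiskers are the mean ± SD of 3 libraries. TSEN34 lies at 68.2 to 98.3 CPM with GST-Ferry and at 30.1 to 37.6 CPM with GST, while TSEN15, DDX1 and FAM98B overlap between the baits.

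CLP1, the RNA kinase that attaches to the endonuclease, was the least abundant of the group. It had 16.1, 27.8 and 22.2 CPM in GST-Ferry 1 to 3, against 12.1, 11.4 and 10.6 CPM in GST 1 to 3. The groups did not overlap, and the means were 22.04 ± 5.88 CPM with GST-Ferry and 11.3 ± 0.724 CPM with GST (SD, n = 3 each). These values rest on 51 to 110 counts per GST-Ferry library. The log2 fold change of 0.93 ± 0.26 did not pass the test (adjusted p = 0.096, edgeR quasi-likelihood). It passed with DESeq2 (adjusted p = 0.0428) and, by edgeR, without GST 3 (adjusted p = 0.0485).

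Within the ligase complex RTCB stood apart from its partners. RTCB, the enzyme that seals the exon ends and also the cut mRNA of the stress factor XBP1, had 145, 229 and 177 CPM in GST-Ferry 1 to 3, against 79.5, 78.6 and 89.6 CPM in GST 1 to 3. All GST-Ferry libraries were above all GST libraries, with GST-Ferry 1 again the lowest of its group. The means were 184 ± 42.1 CPM with GST-Ferry and 82.6 ± 6.08 CPM with GST (SD, n = 3 each). The log2 fold change was 1.15 ± 0.21, or 2.22-fold (adjusted p = 0.0427, edgeR quasi-likelihood), the 111th highest of all genes. RTCB (ENSG00000100220) lies on the minus strand of chromosome 22 (chr22:32387582-32412255, GRCh38).

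RTRAF, a small subunit of the ligase complex, had 126, 170 and 141 CPM with GST-Ferry, against 94.0, 107 and 117 CPM with GST. The groups did not overlap but came close, and the log2 fold change of 0.46 ± 0.20 did not pass (adjusted p = 0.229, edgeR quasi-likelihood). DDX1, the DEAD-box helicase of the complex, had 119, 158 and 135 CPM with GST-Ferry, against 122, 107 and 153 CPM with GST. Its groups overlapped almost fully (log2 fold change 0.11 ± 0.21, adjusted p = 0.808, edgeR quasi-likelihood).

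FAM98B, a further subunit, had 64.2, 66.0 and 52.6 CPM with GST-Ferry, against 58.4, 60.6 and 85.9 CPM with GST. GST 3 was the highest library, as it was for TSEN15, and the log2 fold change was -0.16 ± 0.21 (adjusted p = 0.718, edgeR quasi-likelihood). ZBTB8OS, the archease gene, had 34.1, 29.4 and 27.8 CPM with GST-Ferry, against 36.7, 50.7 and 37.4 CPM with GST. It was the only one of the 9 genes with every GST-Ferry library below every GST library, and its log2 fold change of -0.44 ± 0.22 did not pass (adjusted p = 0.278, edgeR quasi-likelihood).

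In all, 4 of the 9 genes (TSEN34, CLP1, RTCB and RTRAF) had every GST-Ferry library above every GST library and 1 had every library below. Over all genes tested these shares were 14.9% and 12.2%. Both calls depended on single libraries and on the scaling. Without GST-Ferry 2, GST-Ferry 3 or GST 2 neither gene passed (adjusted p = 0.425, 0.388 and 0.0956 for TSEN34 and 0.425, 0.41 and 0.11 for RTCB, edgeR quasi-likelihood), and RTCB was also lost without GST 1 (adjusted p = 0.0536). With library sizes alone as the scaling, adjusted p by edgeR was 0.0626 for TSEN34 and 0.067 for RTCB. RTCB also missed the threshold with RLE size factors (0.0527) and with limma-voom (0.0573). Those fits called few genes of the whole table as higher, 0 without GST-Ferry 2, 3 without GST-Ferry 3, 3 without GST 2 and 7 with library sizes alone. The fold changes moved less: over all 17 alternatives they ran from 1.16 to 1.48 for TSEN34 and from 0.92 to 1.36 for RTCB, on the log2 scale.

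**Figure D2:**
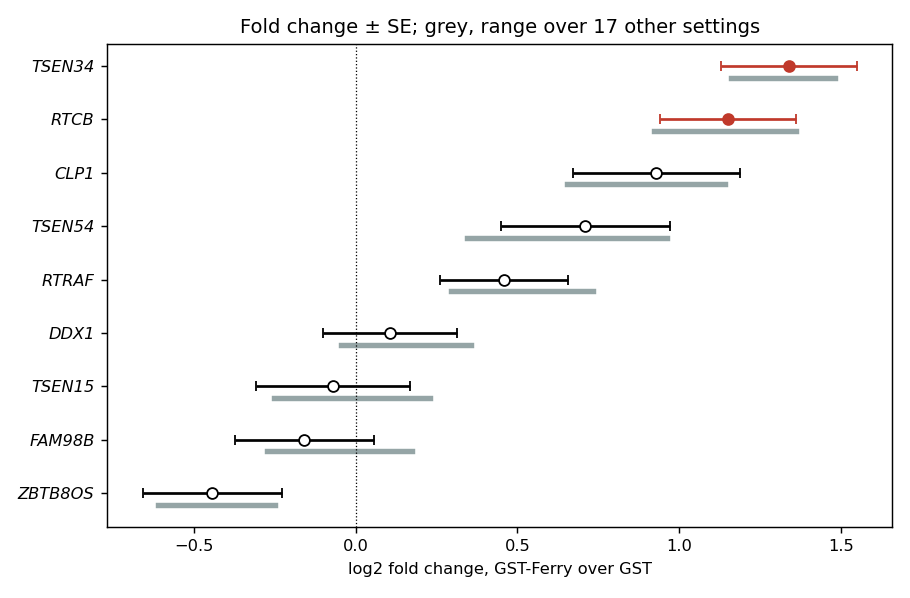
Log2 fold change of GST-Ferry over GST for the 9 tRNA splicing genes (points, ± SE from the fit; filled red, adjusted p under 0.05). Grey bars give the range over 17 other settings, which stays above 0 for TSEN34 (1.16 to 1.48), RTCB, CLP1, TSEN54 and RTRAF and crosses 0 for DDX1, TSEN15 and FAM98B.

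GST-Ferry 1 and GST 3 each differed more from the other libraries of their bait than those did from each other. The chi-square of counts per degree of freedom was 16.3 and 24.5 for GST-Ferry 1 and 4.44 between GST-Ferry 2 and 3, and it was 59.7 and 55.8 for GST 3 and 13.02 between GST 1 and 2. The counts included reads of the FERRY subunit genes, whose share differed between the GST-Ferry libraries, and this measure also grows with library depth. It was not computed without those reads or at equal depth. Leaving out both GST-Ferry 1 and GST 3 gave the group its highest number of calls. TSEN34, RTCB, CLP1, TSEN54 and RTRAF then passed as higher and ZBTB8OS as lower (adjusted p from 3.83e-05 for RTCB to 0.0474 for ZBTB8OS, edgeR quasi-likelihood). Of the 15242 genes in that fit 1754 were called higher and 992 lower, so many genes outside the group passed with them.

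Ratios of read counts within a library do not depend on how libraries are scaled. They come from the same counts as the fold changes and are not separate support for them. For each read of TSEN15 there were 1.68, 2.11 and 2.189 reads of TSEN34 in GST-Ferry 1 to 3, against 1.118, 0.797 and 0.502 in GST 1 to 3. Every GST-Ferry library thus lay above every GST library. The ratio of TSEN34 to TSEN54 was 1.50, 1.29 and 0.975 with GST-Ferry, against 0.874, 0.622 and 0.915 with GST. There the groups did not overlap but came close, with GST-Ferry 3 just above GST 3. The ratio of RTCB to DDX1 was above 1 with GST-Ferry and below 1 with GST in every library, at 1.22, 1.45 and 1.31 with GST-Ferry, against 0.652, 0.735 and 0.585 with GST. The ratio of RTCB to FAM98B was 2.26, 3.46 and 3.36 with GST-Ferry, against 1.36, 1.30 and 1.04 with GST. The ratio of RTCB to RTRAF was 1.15, 1.35 and 1.26 with GST-Ferry, against 0.846, 0.734 and 0.769 with GST, and here too the groups did not overlap. Between the 2 called genes, which had similar fold changes, the groups overlapped. TSEN34 had 0.469, 0.430 and 0.484 reads per read of RTCB with GST-Ferry, against 0.473, 0.3998 and 0.336 with GST.

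**Figure D3:**
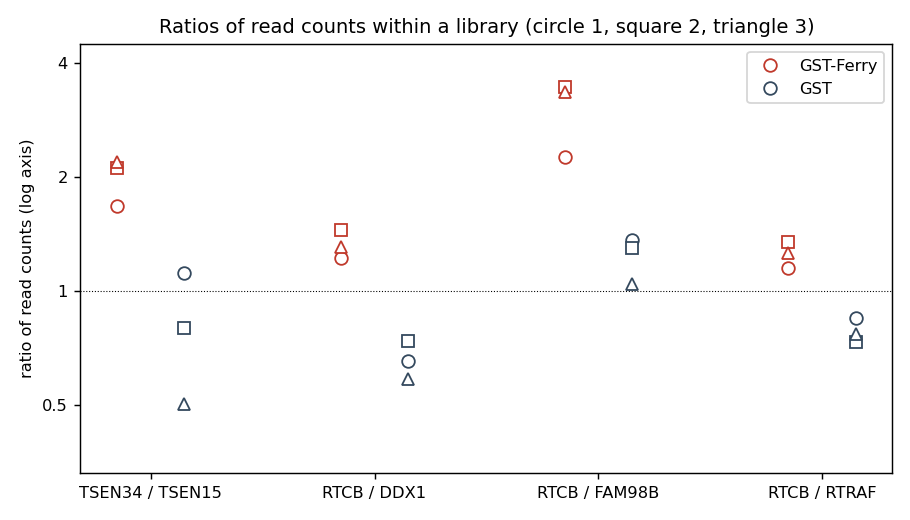
Ratios of read counts of 2 genes within each library (log axis; red, GST-Ferry; dark, GST; one symbol per replicate number). The GST-Ferry libraries lie above the GST libraries for each of the 4 pairs, as with TSEN34 to TSEN15 (1.68 to 2.189 against 0.502 to 1.118).

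Levels can be compared between genes once they are divided by transcript length, taken here from 1 representative GENCODE transcript per gene. With GST-Ferry, RTCB was the most abundant mRNA of the group at 90.6 ± 20.8 CPM per kb, ahead of DDX1 at 50.1 ± 7.05, TSEN34 at 36.6 ± 6.58 and TSEN54 at 35.9 ± 11.3 CPM per kb (SD, n = 3). DDX1, TSEN34 and TSEN54 did not differ beyond their spread, nor did TSEN15, RTRAF and ZBTB8OS, which followed at 21.2 ± 1.97, 20.6 ± 3.13 and 19.0 ± 2.03 CPM per kb. FAM98B had 13.9 ± 1.66 and CLP1 9.05 ± 2.41 CPM per kb.

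With GST the order differed. DDX1 at 46.5 ± 8.61 and RTCB at 40.7 ± 3.00 CPM per kb came at the top, within their spread of each other. ZBTB8OS (26.01 ± 4.93), TSEN15 (22.3 ± 6.92) and TSEN54 (21.7 ± 4.57 CPM per kb) followed and did not differ beyond their spread. FAM98B (15.6 ± 3.48), RTRAF (14.97 ± 1.6) and TSEN34 (14.4 ± 1.76 CPM per kb) came next and also overlapped. The spread of TSEN15 reached those of FAM98B, RTRAF and TSEN34, and the spread of TSEN54 reached that of FAM98B. CLP1 was last at 4.66 ± 0.297 CPM per kb. TSEN34 was thus 3rd of the 9 mRNAs with GST-Ferry and 8th with GST. Divided by the length of all annotated exons of each gene, TSEN34 was 3rd with GST-Ferry and 7th with GST, whereas TSEN15, whose annotated exons cover 10197 bases, was 9th with GST-Ferry and 8th with GST. RTRAF has a representative transcript of 7075 bases, of which 6178 are 3′ untranslated. By that length RTRAF was 6th with GST-Ferry and 7th with GST. By all annotated exons RTRAF was 5th with GST-Ferry and 3rd with GST. The order below RTCB therefore depends on the length used.

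The genes differ in base composition, which moved with the fold change across the whole table. Over 12831 coding genes, the share of G or C at the third codon position (GC3) and the log2 fold change had a Spearman correlation of 0.552 across genes, which share the 6 libraries and are not independent replicates. The median log2 fold change was 0.34 in the 3208 genes with the highest GC3 and -0.28 in the 3208 with the lowest. The middle 20 codons of 3 coding regions are shown to make codon composition visible, TSEN34 and RTCB as the called genes and FAM98B as the lowest GC3 of the group. Capitals mark G or C at the third codon position, and the sequences are from GENCODE 29 transcripts (GRCh38), written 5′ to 3′.
TSEN34: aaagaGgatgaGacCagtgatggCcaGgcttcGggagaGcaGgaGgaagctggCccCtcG
RTCB: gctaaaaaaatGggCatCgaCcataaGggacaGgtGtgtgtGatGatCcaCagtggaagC
FAM98B: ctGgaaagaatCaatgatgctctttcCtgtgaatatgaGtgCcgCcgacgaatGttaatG

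In these windows 12 of 20 codons ended in G or C in TSEN34 and in RTCB, against 8 in FAM98B. Over the whole coding region GC3 was 74.8% in TSEN34 and 78.3% in TSEN54, both among the 3208 coding genes with the highest values. RTCB had 51.1%, CLP1 55.1% and TSEN15 51.5%, in a bin of 44.0% to 59.0% whose median log2 fold change was -0.09. RTCB and TSEN15 had nearly the same GC3, with log2 fold changes of 1.15 and -0.07. This is 1 pair of genes, and the part of GC3 in their values was not tested. DDX1, RTRAF, ZBTB8OS and FAM98B had between 33.03% and 41.9% and lay in the lowest bin.

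Another fit used offsets that remove the trend with GC content and length of the whole transcript from each library. GC3 itself was not part of these offsets, and its part in the result was not tested. The GC content of the whole transcript was 52.1% for TSEN34 and 49.5% for RTCB. In that fit the log2 fold change was 1.26 for TSEN34 (adjusted p = 0.0101) and 1.16 for RTCB (adjusted p = 0.0178, edgeR quasi-likelihood for both). TSEN54 had 0.34 in that fit, against 0.71 without offsets. RTRAF had 0.73 and passed (adjusted p = 0.0491, edgeR quasi-likelihood).

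**Figure D4:**
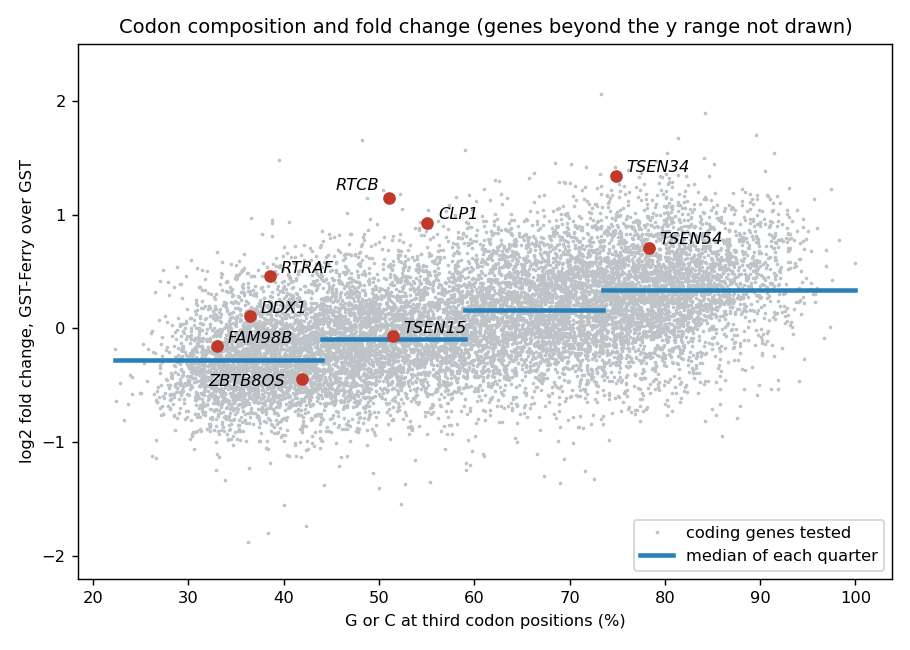
Share of G or C at the third codon position (x axis, %) and log2 fold change of GST-Ferry over GST (y axis) for 12831 coding genes (grey; genes beyond the y range not drawn), with the 9 tRNA splicing genes in red. Blue lines give the median of each of 4 bins of genes by GC3, from -0.28 to 0.34. TSEN34 and TSEN54 lie in the highest bin, RTCB, CLP1 and TSEN15 in the bin of 44.0% to 59.0%, and the others in the lowest.

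The genes on either side of TSEN34 did not pass the test. MBOAT7, a lysophospholipid acyltransferase gene on the opposite strand, lies 55 bases from the annotated start of TSEN34. It had 60.1, 41.0 and 51.3 CPM with GST-Ferry, against 55.8, 42.3 and 30.2 CPM with GST, and the groups overlapped (log2 fold change 0.25 ± 0.25, adjusted p = 0.598, edgeR quasi-likelihood). RPS9, a ribosomal protein gene 6205 bases beyond the other end, gave 0.48 ± 0.22 on the log2 scale (adjusted p = 0.246, same test). Of the 10 nearest tested genes, 5 on each side, 0 passed in either direction by edgeR, or by DESeq2, which gave no adjusted p for LENG9 and ENSG00000267838. Over all genes tested, 0.624% passed in either direction by edgeR. At an unadjusted p under 0.05, 1 of the 10 was higher, a share near the 11.3% of all genes. The groups overlapped for 9 of them, all but LENG9. Over all genes tested, 14.9% had every GST-Ferry library above every GST library and 12.2% had every library below. The log2 fold changes of the 10 neighbours ran from -0.37 for LENG8-AS1 to 0.88 for LENG9.

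Reads that could belong to another gene were few for most of the group. Exons of CLP1 share bases with YPEL4 on the opposite strand, which had at most 12 counts in a library, and with MIR130AHG, which had at most 1. RTRAF shares 1915 exon bases with NID2, on the opposite strand, which had 264, 66 and 71 counts with GST-Ferry, against 423, 346 and 205 with GST. ZBTB8OS shares 179 exon bases with ZBTB8A on the opposite strand, which had 123, 40 and 27 counts with GST-Ferry, against 128, 139 and 237 with GST. The sources do not state whether counting used strand, and counts of RTRAF and ZBTB8OS are therefore less certain than those of TSEN34 and RTCB. Annotated processed pseudogenes of TSEN15, RTRAF and ZBTB8OS had at most 5 counts in any library.

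Around the group, lists of other genes of tRNA maturation and of mRNA 3′ end cleavage were read from the same fit. Of 100 listed genes 99 were tested. Of these, 2 passed as higher and 0 as lower, beside 0.592% and 0.0322% of all genes tested, and the median log2 fold change was 0.14. RPP21 was left out by the filter on low counts. The called genes were TRMT112, the activating partner of several methyltransferases including tRNA-modifying ones, and HSD17B10, a mitochondrial dehydrogenase that is also part of mitochondrial RNase P. In these lists 20 of 99 genes had every GST-Ferry library above every GST library and 8 had every library below, beside 14.9% and 12.2% of all genes tested.

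TRMT112 had 79.1, 114 and 146 CPM in GST-Ferry 1 to 3, against 37.3, 52.5 and 49.9 CPM in GST 1 to 3 (log2 fold change 1.27 ± 0.25, adjusted p = 0.0458, edgeR quasi-likelihood). HSD17B10 had 57.2, 95.9 and 77.0 CPM with GST-Ferry, against 35.6, 38.0 and 26.7 CPM with GST (log2 fold change 1.19 ± 0.24, adjusted p = 0.0477, same test). The groups did not overlap for either gene and GST-Ferry 1 was again the lowest of its group. Both calls were lost without any one of GST-Ferry 2, GST-Ferry 3, GST 1 and GST 2 and with either other scaling, RLE size factors or library sizes alone, and with limma-voom. The log2 fold changes stayed between 1.02 and 1.53 for TRMT112 and between 0.96 and 1.37 for HSD17B10 over all 17 alternatives.

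Over all genes tested, 0.592% passed as higher by edgeR, and with DESeq2 4.39% of the genes with an adjusted p did. By list, 1 of 17 tested genes of tRNA end processing passed, with a median log2 fold change of 0.22. At an unadjusted p under 0.05, 5 of them were higher and 1 lower, beside 11.3% and 8.05% of all genes, and 2 passed as higher with DESeq2, which gave ELAC1 no adjusted p. The list's most abundant gene by mean CPM was SSB, which encodes the La protein that binds new RNA polymerase III transcripts. SSB gave 0.17 ± 0.20 on the log2 scale (adjusted p = 0.665, edgeR quasi-likelihood). Of 53 tRNA modification genes 1 passed, with a median of 0.04 and the Elongator subunit ELP2 at 0.02 ± 0.23 (adjusted p = 0.968, same test). At an unadjusted p under 0.05, 7 of the 53 were higher and 5 lower, and 2 passed as higher with DESeq2. Of 10 other tRNA splicing factors 0 passed by edgeR, 1 passed as higher with DESeq2 and at an unadjusted p under 0.05 there were 2 higher and 0 lower, with a median of 0.02. The most abundant of these by mean CPM, not divided by length, was CNP, a cyclic nucleotide phosphodiesterase. It had 107, 169 and 141 CPM with GST-Ferry, against 81.6, 70.0 and 56.7 CPM with GST (log2 fold change 1.00 ± 0.23, adjusted p = 0.0608, same test).

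The list of mRNA 3′ end cleavage factors, to which CLP1 also belongs by function, had 0 of 17 genes called by edgeR or DESeq2, 1 higher at an unadjusted p under 0.05, beside 11.3% of all genes, and a median log2 fold change of 0.14. CPSF6, of cleavage factor I, had a value of -0.22 ± 0.20 (adjusted p = 0.577, edgeR quasi-likelihood). The highest log2 fold change in that list was 0.45, below the 0.93 of CLP1. Neither of the 2 export receptors listed passed, with XPO5 at 0.27 ± 0.19 (adjusted p = 0.444, same test).

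**Figure D5:**
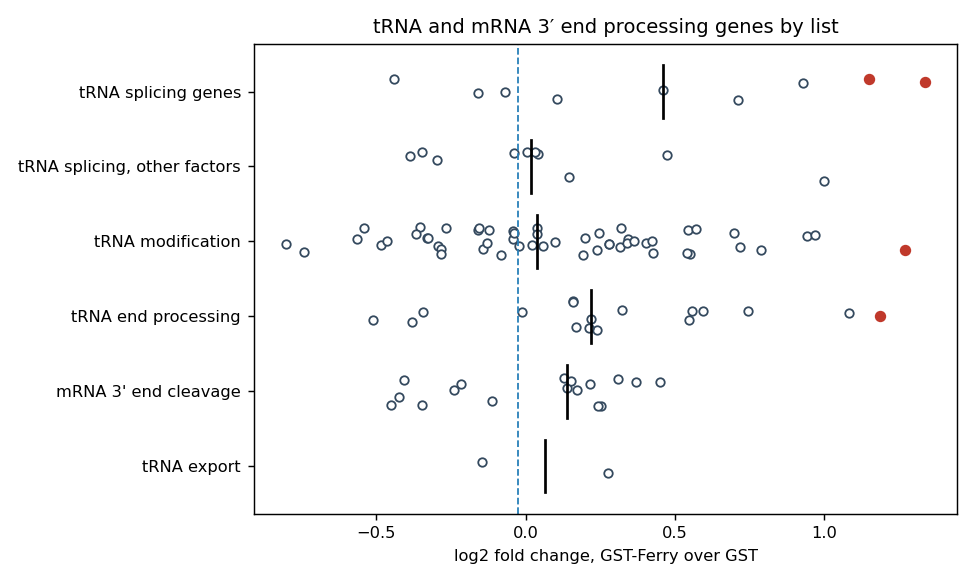
Log2 fold change of GST-Ferry over GST for the tRNA splicing genes and 5 lists of related genes (1 point per gene; filled red, adjusted p under 0.05; vertical jitter only for display). Black bars are list medians and the dashed line is the median of all genes tested (-0.03); the list medians run from 0.02 to 0.46.

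The genes with the pattern most like that of TSEN34 were sought among 10480 other coding genes averaging 10 CPM or more, by the root mean square difference of centred log2 CPM over the 6 libraries. They were the actin-binding twinfilin TWF2 (0.0871), the endosomal GTPase RAB5C (0.0886), the vesicle protein VAT1 (0.0894), HPS6 of a complex in lysosome-related organelle formation (0.0993) and the chaperonin subunit CCT5 (0.101). Their log2 fold changes lay between 1.21 for VAT1 and 1.32 for RAB5C. Values near that of TSEN34 follow from the search, which used the same libraries, and are a description only. RTCB was the 52nd closest, at 0.182, and the median over all compared genes was 0.706.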

How the data were processed

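The deposited file holds the authors' unnormalised counts of reads for each Ensembl gene in 6 libraries, 3 with GST-Ferry and 3 with GST as bait. Per the labels' protocols, ribosomal RNA was removed and libraries kept strand. The submitters' processing notes name STAR 2.5.2b, bcl2fastq 2.19.1 and the build GRCh38.p13. The counting program, annotation release and strand setting are not given in the sources used here. Symbols and transcript features came from GENCODE 29 (GRCh38) and a table of gene names, with 9 of 9 genes matched.

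Genes were filtered with filterByExpr (minimum count 10, minimum total 15), scaled with TMM and tested with edgeR 4.0.16's quasi-likelihood test in R 4.3.3, two-sided, GST-Ferry over GST, with Benjamini-Hochberg adjustment over all 15546 genes. Genes at an adjusted p under 0.05 are called. CPM are counts per 1000000 of the TMM-scaled library size of the tested genes, SE is the fold change divided by the square root of the F statistic, and no depth correction was applied beyond scaling. The procedure was tested on simulated data. Per-library values carry counting error that grows with smaller totals, and GST-Ferry 2 and 3 were the shallowest.

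The genes and lists were chosen with earlier results of these data known. Of the wider lists, 1 gene is not reported here. Within the wider lists, called genes and the most abundant gene by mean CPM were named, with the nearest neighbours of TSEN34 and the 5 genes most like it. Separate cultures are not mentioned in the labels. The p-values therefore reflect the spread among these 6 libraries, a spread that could be technical. Pairs of libraries of 1 bait differed beyond counting noise (chi-square 4.44 to 59.7 per degree of freedom), so none was merged. A higher share of one mRNA and a lower share of others cannot be told apart. Alternatives were RLE size factors, library sizes alone, no filter, a threshold of 0.01, DESeq2 1.42.0, limma-voom (limma 3.58.1), removal of bait genes, a block for the replicate number, offsets for GC content and length, thinning of counts to equal depth, each library left out, and 2 libraries left out together. Figures were drawn with matplotlib 3.10.9.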

Additional observations from a re-analysis of the deposited data

How the results depend on the processing

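TSEN34 and RTCB kept fold changes above 0 under all 17 alternatives, and the call held in 12 of them for TSEN34 and 9 for RTCB. The number of calls changed with the processing, and the cause was not tested. Beside 92 genes higher and 5 lower, RLE size factors gave 11 and 0, library sizes alone 7 and 0, no filter on low counts 421 and 323, a threshold of 0.01 gave 0 and 0, DESeq2 524 and 177, limma-voom 14 and 0, GC and length offsets 291 and 52, and the fit without both GST-Ferry 1 and GST 3 gave 1754 and 992. Thinning gave 15 lower. Leaving out 1 library gave 0 (without GST-Ferry 2) to 701 (without GST 3) higher and 0 to 558 lower. Without GST-Ferry 2 the unadjusted p by edgeR was under 0.05 for 910 genes higher and 794 lower with GST-Ferry.

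Of the 9 tRNA splicing genes, called higher were 1 with RLE or limma-voom, 0 with library sizes alone or at 0.01, 5 without both libraries (with 1 lower), and 0 to 3 when 1 library was left out. Of the wider lists, called higher were 0 with RLE, library sizes, limma-voom or at 0.01, 4 without filter or with offsets, 5 with DESeq2, 20 without both libraries (with 5 lower), and 0 to 10 when 1 library was left out; 1 was lower without filter, and 0 to 1 when 1 library was left out.

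Genes near 0 changed sign. With offsets TSEN15 had a log2 fold change of 0.19, FAM98B 0.18, CPSF6 0.16 and MBOAT7 -0.088, and without both libraries TSEN15 had 0.23 and MBOAT7 -0.090. ELP2 had -0.033 with library sizes alone, -0.034 without filter and -0.012 after thinning. When 1 library was left out, values ran from -0.25 to 0.18 for TSEN15, from -0.044 to 0.23 for DDX1, from -0.28 to 0.015 for FAM98B and from -0.17 to 0.22 for ELP2.

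Library numbers shared by the baits do not pair them by the labels, and same-numbered deviations correlated at 0.246, 0.0793 and -0.133. With the replicate number as a block 167 genes were higher and 28 lower, with TSEN34 at 1.33 and RTCB at 1.13 on the log2 scale, and only GST-Ferry 1 correlated best with its own number. Depth limits CLP1, which had 51 to 125 counts per library.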
